A study of Mus musculus with 3 samples.

Results

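The immediate-early and heat shock genes described here are 34 of the 32285 genes in the count tables of a mouse lung single-cell RNA sequencing study. They were taken by gene symbol from a fixed list of 26 immediate-early and 8 heat shock genes, and each symbol was found in the tables. All 34 were matched by their Ensembl identifiers to protein-coding genes of the GRCm38 annotation. The rule uses no measured value.

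The study compared 3 lung libraries of droplet-based sequencing, 1 per group, from mice aged 3 months. The group labels are PD00, Model and Control, and the series title names ovalbumin (OVA)-induced immune cells and the peptidomimetic PD00. The treatment label of each library is only the group name, PD00, Model or Control. The labels do not say whether the PD00 animals also received ovalbumin, how many animals went into a library, what dose or time was used, or how the lungs were dissociated. The source tissue of all 3 libraries is labelled as healthy lung. With 1 library per group there is no replicate check, so no p-value is given, and a difference between groups cannot be told apart from a difference between these libraries.

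Immediate-early genes are transcribed within minutes of a stimulus from promoters that need no newly made protein, through kinase signalling to factors already present in the cell. They encode transcription factors, among them the AP-1 subunits of the FOS and JUN families and the EGR and NR4A families, together with regulators that end the signal. Heat shock genes encode chaperones that fold or hold proteins and are induced through heat shock factor 1 when unfolded proteins accumulate. Both gene groups are known to respond when tissue is dissociated and cells are handled warm, and in lung the immediate-early genes also respond to cytokines, antigen receptors, stretch and shear stress.

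Promoter windows show how the gene groups differ in sequence. RefSeq windows of 300 bases (250 before the start and 50 after it, GRCm38.p6) were available for 29 of the 34 genes, 23 immediate-early and 6 heat shock. Egr1, Egr3, Ier2, Hsp90aa1 and Hspa8 had none. The heat shock element dyad, written TTCNNGAA or GAANNTTC and searched on both strands, was found in 5 of the 6 heat shock windows (Hspa1a, Hspa1b, Hspb1, Hspe1 and Hsph1), in 2 of the 23 immediate-early windows (Egr2 and Jun), and in 17.0% of all 27025 genes with a window. TGACGT, the core of the cyclic AMP response element, was found on either strand in 7 of the 23 immediate-early windows (Atf3, Btg2, Dusp1, Egr2, Fos, Maff and Nr4a3), in 0 of the 6 heat shock windows and in 8.37% of all genes. The kappa B site was found in 7 of 23 and 3 of 6 windows, against 9.55% of all genes, and the CArG box, which serum response factor binds, in 2 of 23 and 0 of 6, against 1.81%. TATAAA was found in 5 of 23 and 0 of 6 windows, against 15.7%. These matches describe the letters in the windows and do not show binding. The windows of 6 genes on which the results below turn are printed 5′ to 3′, with capitals marking the heat shock element in Hspa1a, Hspa1b and Hsph1, TGACGT and TATAAA in Fos, TGACGT (here on the other strand) in Atf3, and the kappa B site and TATAAA (here on the other strand) in Nfkbia. Other matches are left in lower case.
Hspa1a, chr17:34972107-34972406, minus strand: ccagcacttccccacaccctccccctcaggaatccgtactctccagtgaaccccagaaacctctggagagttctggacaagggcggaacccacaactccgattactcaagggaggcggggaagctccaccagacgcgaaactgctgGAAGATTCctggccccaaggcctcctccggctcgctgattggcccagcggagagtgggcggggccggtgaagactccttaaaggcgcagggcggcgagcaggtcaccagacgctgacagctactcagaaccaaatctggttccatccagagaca
Hspa1b, chr17:34959189-34959488, minus strand: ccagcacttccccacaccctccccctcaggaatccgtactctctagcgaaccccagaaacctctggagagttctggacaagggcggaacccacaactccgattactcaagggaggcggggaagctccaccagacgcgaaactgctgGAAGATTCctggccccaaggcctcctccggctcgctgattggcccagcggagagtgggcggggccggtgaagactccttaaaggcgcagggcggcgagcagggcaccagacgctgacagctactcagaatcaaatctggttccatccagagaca
Hsph1, chr5:149636266-149636565, minus strand: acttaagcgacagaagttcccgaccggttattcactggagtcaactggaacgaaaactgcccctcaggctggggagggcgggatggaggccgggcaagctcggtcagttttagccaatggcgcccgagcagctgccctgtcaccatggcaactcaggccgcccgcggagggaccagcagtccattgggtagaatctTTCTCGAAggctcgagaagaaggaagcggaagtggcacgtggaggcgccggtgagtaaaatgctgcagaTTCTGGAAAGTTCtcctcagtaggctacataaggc
Fos, chr12:85473640-85473939, plus strand: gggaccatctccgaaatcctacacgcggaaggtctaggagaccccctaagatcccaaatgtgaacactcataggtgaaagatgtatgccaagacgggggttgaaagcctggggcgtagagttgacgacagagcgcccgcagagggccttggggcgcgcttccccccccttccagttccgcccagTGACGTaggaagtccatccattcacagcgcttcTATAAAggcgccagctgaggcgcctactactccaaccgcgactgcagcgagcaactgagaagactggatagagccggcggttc
Atf3, chr1:191183284-191183583, minus strand: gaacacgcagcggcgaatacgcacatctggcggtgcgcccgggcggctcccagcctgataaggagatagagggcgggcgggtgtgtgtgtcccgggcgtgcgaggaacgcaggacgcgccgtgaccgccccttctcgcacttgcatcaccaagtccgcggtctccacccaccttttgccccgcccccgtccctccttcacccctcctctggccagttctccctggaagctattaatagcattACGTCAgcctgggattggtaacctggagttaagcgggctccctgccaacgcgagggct
Nfkbia, chr12:55492598-55492897, minus strand: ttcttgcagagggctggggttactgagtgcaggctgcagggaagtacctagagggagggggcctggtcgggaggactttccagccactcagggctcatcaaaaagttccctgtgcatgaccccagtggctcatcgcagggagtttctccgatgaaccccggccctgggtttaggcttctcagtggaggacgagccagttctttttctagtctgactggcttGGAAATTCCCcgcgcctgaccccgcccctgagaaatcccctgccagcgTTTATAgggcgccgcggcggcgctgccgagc
The Hspa1a and Hspa1b windows carried the same base at 296 of 300 positions. These genes are near-identical copies beside each other on chromosome 17, so the reads of one may be lost or given to the other, and their separate values are uncertain.

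The libraries held 9851 barcodes and 80288883 unique molecular identifiers (UMIs) in PD00, 11772 barcodes and 81816397 UMIs in Model, and 10133 barcodes and 83281019 UMIs in Control. After filters on UMIs, genes, mitochondrial share and doublet score, 9373, 11285 and 9368 cells were kept in PD00, Model and Control. Median mitochondrial shares of the kept cells were 4.98%, 4.91% and 4.55% in the same order. Between 31 and 43 barcodes were shared by any pair of libraries. Levels are given as CPM (UMIs scaled to a fixed library total), the summed UMIs of a gene over the cells in question, scaled to 1000000 UMIs of those cells. They are compared for the same gene across libraries or cell types. Folds carry exact 95% intervals, which cover counting error only and not variation between animals or libraries. A gene is counted as higher or lower when its CPM ratio reached 1.5-fold with at least 50 UMIs over both sums, and ratios are otherwise given as log2. The Model library enters the comparisons with PD00 and with Control, and Control enters those with Model and with PD00, so the comparisons share libraries and are not independent.

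Cell types were assigned per cell from marker genes that include none of the 34, and 13 types had at least 50 cells in each library. The summed markers of each type stood above their median in the other types. Classical monocytes in PD00 and neutrophils in all 3 libraries nevertheless had another gated group with a higher sum of their markers. In PD00, neutrophils had 16384 CPM and the highest other group 23419 CPM, and classical monocytes 1914 CPM and the highest other group 2286 CPM. The neutrophil gap was widest in Control, at 11813 CPM against 47511 CPM in the highest other group. The ILC2 gate held mixed cells. Of its cells, 115 of 263 in PD00, 73 of 219 in Model and 169 of 183 in Control fell into the cluster named ILC2, and the macrophage gene Lyz2 was at 2871 CPM in PD00, 2530 CPM in Model and 397 CPM in Control. ILC2 values below therefore come from cells on which gate and cluster agreed, unless the whole gate is named.

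Fibroblasts and endothelial cells carried high levels of both gene groups. Summed over the 26 genes, immediate-early levels in fibroblasts were 26980 CPM in PD00, 28369 CPM in Model and 33972 CPM in Control. In endothelial cells they were 18133 CPM in PD00, 15102 CPM in Model and 21243 CPM in Control. The highest immediate-early sums were those of fibroblasts in PD00 and Model and of the ILC2 gate in Control (38252 CPM). In PD00 and Model the ILC2 gate held mixed cells. The lowest sums were those of B cells in PD00 (6363 CPM) and Model (6154 CPM) and of T cells in Control (9046 CPM). The heat shock sum was highest in endothelial cells of all 3 libraries, at 5591 CPM in PD00, 5857 CPM in Model and 5739 CPM in Control. It was lowest in neutrophils, at 943 CPM in PD00, 1073 CPM in Model and 944 CPM in Control, although neutrophils were among the types with more immediate-early RNA (14110 CPM in PD00, 12601 CPM in Model and 17937 CPM in Control). Across the 13 types, with ILC2 as the whole gate, the sums of the 2 gene groups had a Spearman correlation of 0.34 in PD00, 0.32 in Model and 0.21 in Control. This is a description over 13 points that share a library and its depth.

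**Figure D1:**
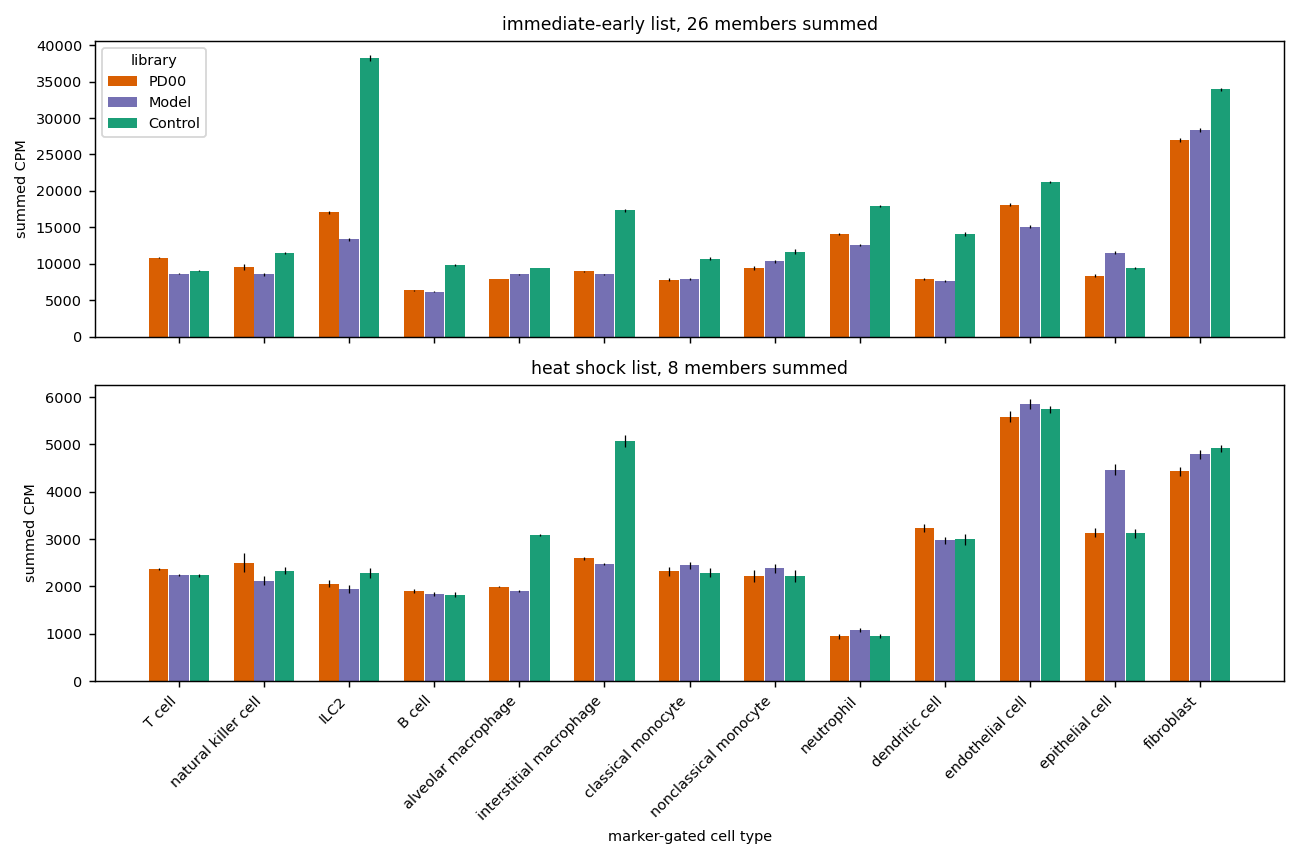
Summed CPM of the 26 immediate-early genes (upper panel) and the 8 heat shock genes (lower panel) in 13 marker-gated cell types, with bars for the PD00, Model and Control library and error bars for the exact 95% interval of counting error. Immediate-early bars are tall in fibroblasts (26980 to 33972 CPM), and the tallest in Control is that of the ILC2 gate (38252 CPM). Heat shock bars are tallest in endothelial cells (5591 to 5857 CPM) and shortest in neutrophils (943 to 1073 CPM). The ILC2 gate holds mixed cells in PD00 and Model.

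The cell type with the highest level was the same in all 3 libraries for 11 of the 26 immediate-early and 4 of the 8 heat shock genes. This count took ILC2 as the whole gate with its mixed cells, so it can miss genes that led in ILC2. Junb, for example, was highest in the ILC2 gate in PD00 and Control and in fibroblasts in Model. Egr1, a zinc finger factor induced by growth factors and shear, was highest in fibroblasts with 3331 CPM in PD00, 3515 in Model and 4579 in Control, followed by endothelial cells with 1150.5 CPM in PD00, 863 in Model and 1518 in Control. Egr2, its relative, was highest in alveolar macrophages with 139 CPM in PD00, 140.2 in Model and 230.1 in Control, and its fibroblast levels were 58.7 in PD00, 70.9 in Model and 46.9 in Control. The pair thus had different leading types in every library. Fos, the inducible AP-1 subunit, was also highest in fibroblasts with 3901 CPM in PD00, 3679.9 in Model and 5407 in Control, and Nfkbia, which encodes the inhibitor that holds NF-kappa B in the cytoplasm, was highest in neutrophils with 3279 CPM in PD00, 2812 in Model and 4716 in Control. Dusp2, a nuclear phosphatase of MAP kinases, was highest in natural killer cells with 563 CPM in PD00, 477 in Model and 750.0 in Control. Nr4a3, an orphan nuclear receptor, was highest in dendritic cells with 626 CPM in PD00, 667 in Model and 550.1 in Control.

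Among the heat shock genes, Hspa1a and Hspa1b, the inducible cytosolic chaperones, were highest in endothelial cells. Hspa1a was at 568 CPM in PD00, 1019.9 in Model and 778 in Control, and Hspa1b at 535 CPM in PD00, 789 in Model and 390.2 in Control. In T cells Hspa1a was at 7.07 CPM in PD00, 9.39 in Model and 12.5 in Control, so the endothelial level stood far above it in every library. Hspb1, a small heat shock protein, was at 659 CPM in PD00, 566 in Model and 663 in Control in endothelial cells. Dnajb1, a co-chaperone that delivers substrates to these chaperones, was highest in fibroblasts with 309.8 CPM in PD00, 509 in Model and 672 in Control. Hspe1, the mitochondrial co-chaperonin, had no such stromal peak and was at 148 CPM in PD00, 137 in Model and 152 in Control in endothelial cells and 301 CPM in PD00, 260.5 in Model and 282 in Control in B cells.

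Over all kept cells, Model against Control, 10 of the 26 immediate-early genes were lower and 0 were higher. Among all 15438 genes measured in this comparison, 18.1% were lower and 12.3% higher. The median log2 ratio was -0.45 over the 26 genes and -0.13 over all genes. Atf3, a stress-induced factor of the ATF family, had 251 CPM in PD00, 238 in Model and 516 in Control, which made Model 2.17-fold lower (95% interval 2.13 to 2.21). Maff, a small MAF factor, had 97.3 CPM in PD00, 85.6 in Model and 242 in Control, and Model was 2.83-fold lower (95% interval 2.75 to 2.91). For both genes PD00 lay close to Model and Control stood apart.

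The AP-1 subunits did not move as a block. Fos had 503 CPM in PD00, 479.6 in Model and 755 in Control (Model against Control -0.65 log2) and Jun had 355 CPM in PD00, 375 in Model and 566 in Control (-0.59), both lower in Model but near the threshold: with median-of-ratios scaling Fos (-0.52) and Jun (-0.46) came within 1.5-fold, and Jun also with a 10% mitochondrial limit and with doublets kept. Fosb, at 528 CPM in PD00, 490.3 in Model and 610.3 in Control, and Jund, at 947 CPM in PD00, 845 in Model and 1114 in Control, stayed within 1.5-fold. Junb, the immediate-early member with the most UMIs, had 1952 CPM in PD00, 1921 in Model and 1727 in Control, a Model against Control ratio of 0.15 log2. Of the EGR factors, Egr1 (260.5 CPM in PD00, 248 in Model and 493 in Control) and Egr2 (77.2 CPM in PD00, 68.3 in Model and 145 in Control) were lower in Model by 1.99-fold and 2.12-fold, and Egr3 (24.4 CPM in PD00, 25.2 in Model and 31.2 in Control) was not. With equal weight for each cell type the Egr2 ratio changed sign to 0.16 log2, and those of Egr1 (-0.53) and Maff (-0.56) came within 1.5-fold.

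Nr4a1, an orphan receptor induced by antigen receptor signals in lymphocytes, was lower in Model, with 184 CPM in PD00, 181 in Model and 278 in Control, but was past 1.5-fold under only 7 of 12 alternative settings. Its relatives Nr4a2 (128 CPM in PD00, 137 in Model and 103 in Control) and Nr4a3 (157 CPM in PD00, 170.0 in Model and 155 in Control) had ratios of 0.40 and 0.13 log2. Among the negative regulators, Nfkbia was lower in Model with 939 CPM in PD00, 793 in Model and 1368 in Control. Dusp1, which inactivates stress-activated MAP kinases, had 368 CPM in PD00, 373 in Model and 452 in Control, Zfp36, which destabilises cytokine mRNAs, 331 CPM in PD00, 349 in Model and 429 in Control, Btg2, an antiproliferative cofactor of mRNA deadenylation, 251 CPM in PD00, 266 in Model and 333 in Control, and Socs3, an inhibitor of cytokine receptor signalling, 73.3 CPM in PD00, 92.96 in Model and 116 in Control. These 4 were within 1.5-fold between Model and Control. Dusp2, at 30.7 CPM in PD00, 45.9 in Model and 68.3 in Control, lay just inside the threshold (-0.57 log2).

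Of the Krüppel-like factors, Klf2, which holds lymphocytes quiescent and circulating, was lower in Model, with 187 CPM in PD00, 214 in Model and 372 in Control. Klf4 (432 CPM in PD00, 406 in Model and 426 in Control) and Klf6 (638 CPM in PD00, 612 in Model and 879 in Control) were within 1.5-fold. Ier2, a nuclear immediate-early protein, was lower in Model, with 188 CPM in PD00, 170.1 in Model and 336 in Control. Ier3, at 172 CPM in PD00, 176 in Model and 237 in Control, Ier5, at 160.1 CPM in PD00, 183 in Model and 194 in Control, and the stress sensor Gadd45b, at 276 CPM in PD00, 244 in Model and 337 in Control, were within 1.5-fold. Atf3, Ier2, Klf2 and Nfkbia were lower in Model under all 12 alternative settings tried over all cells.

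The heat shock genes split in the same comparison. Hsph1, a nucleotide exchange factor for the inducible chaperones, had 120.5 CPM in PD00, 113 in Model and 74.1 in Control, 1.52-fold higher (95% interval 1.47 to 1.57) in Model than in Control. Hspa8, the constitutive member of that chaperone family, had 1247 CPM in PD00, 1116 in Model and 1843 in Control, and Hspb1 had 55.9 CPM in PD00, 49.8 in Model and 79.3 in Control, both lower in Model. That made 1 of 8 higher and 2 of 8 lower, beside 12.3% and 18.1% of all genes, and a list median of -0.13 log2 against -0.13 for all genes. Hsp90aa1, the inducible cytosolic HSP90, was at 537 CPM in PD00, 626 in Model and 660.0 in Control, Dnajb1 at 65.6 CPM in PD00, 76.9 in Model and 108 in Control and Hspe1 at 221 CPM in PD00, 227 in Model and 211 in Control, all within 1.5-fold. With equal weight for each cell type the ratios of Hspa8 (-0.28) and Hspb1 (-0.11) came within 1.5-fold too.

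**Figure D2:**
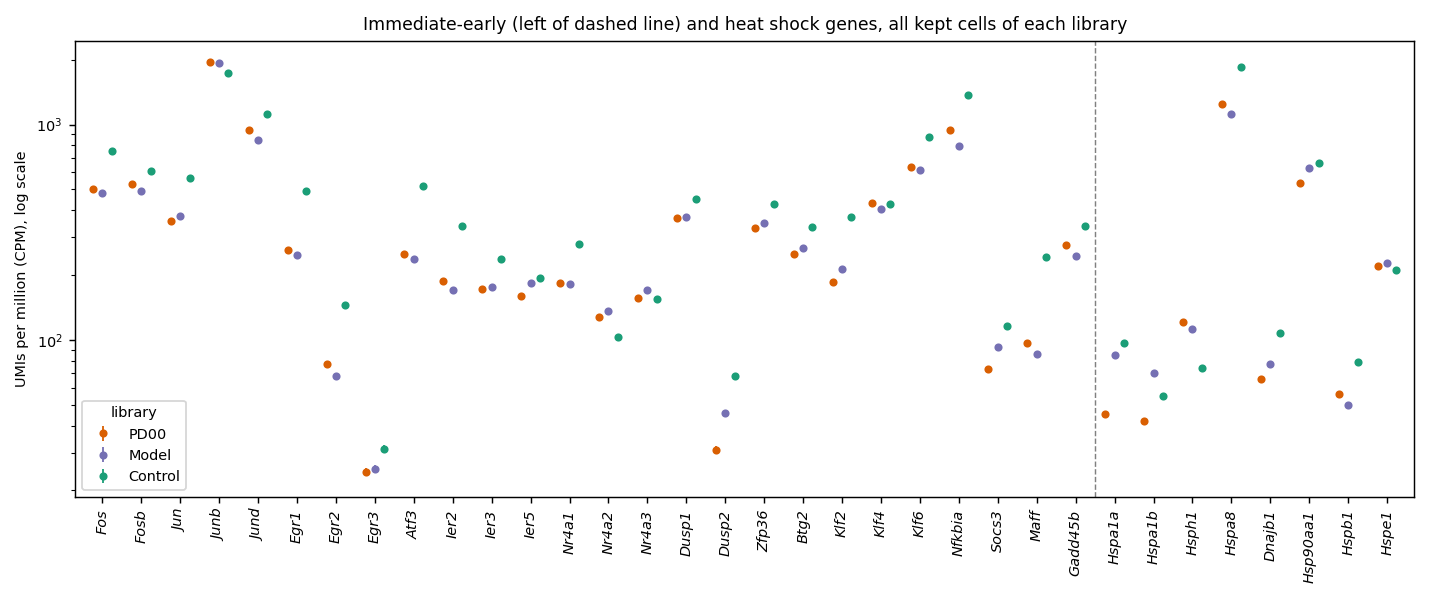
CPM (log axis) of each immediate-early gene, left of the dashed line, and each heat shock gene, right of it, summed over all kept cells of the PD00, Model and Control library; bars for the exact 95% interval of counting error are mostly smaller than the points. PD00 and Model points lie close together for most genes while Control stands above them, as for Atf3 (251, 238 and 516 CPM), and Hspa1a has its low point in PD00 (45.4, 85.2 and 97.3 CPM).

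Between PD00 and Model, 0 of the 26 immediate-early genes were higher and 0 lower over all kept cells, beside 3.5% and 7.29% of 15253 genes, and the list median was 0.02 log2 against 0.00 for all genes. Nfkbia had the highest ratio (0.24 log2) and Dusp2 the lowest (-0.58 log2, just inside the threshold). Hspa1a and Hspa1b were the heat shock genes that differed. Hspa1a had 45.4 CPM in PD00, 85.2 in Model and 97.3 in Control, so that PD00 was 1.88-fold lower (95% interval 1.80 to 1.95) than Model. Hspa1b had 41.8 CPM in PD00, 70.2 in Model and 55.05 in Control, so that PD00 was 1.68-fold lower (95% interval 1.61 to 1.75) than Model, but Model itself stood above Control. In cells thinned to 1000 UMIs the Hspa1b ratio came within 1.5-fold (-0.54 log2). The other 6 heat shock genes ranged from -0.23 (Dnajb1) to 0.17 (Hspb1) log2. The intervals of genes within 1.5-fold are narrow at this depth, as for Egr1, whose PD00 to Model ratio had a 95% interval of 1.03 to 1.07 in counting error.

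Set against Control, PD00 also had 10 of 26 immediate-early genes lower and 0 higher, beside 19.7% and 10.5% of 15285 genes, with a list median of -0.46 log2 against -0.14. Dusp2 (-1.15 log2) and Socs3 (-0.66) passed 1.5-fold here, while Fos (-0.58, just inside the threshold) and Nfkbia (-0.54) did not. Of 12 alternative settings, Socs3 stayed past 1.5-fold in 9, Nr4a1 in 7 and Egr1 in 10. With equal weight for each cell type the Egr2 ratio changed sign (0.08) and that of Maff (-0.51) came within 1.5-fold. Atf3, Dusp2, Ier2 and Klf2 stayed past it in all 12. Of the heat shock genes, Hsph1 was higher (0.70), and Hspa1a (-1.10) and Dnajb1 (-0.72) were lower.

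The cell make-up of the libraries differed, so the genes were read within cell types. Interstitial macrophages, for example, were 815 of the kept cells in PD00, 1189 in Model and 206 in Control, and alveolar macrophages 1364, 913 and 3122. Leaving out ILC2, 12 types could be compared. Model against Control, the immediate-early median was below 0 in 10 of the 12 types and below the median of all genes in 11, and 107 of 305 measured pairs of gene and type were lower and 26 higher, beside 13.4% lower and 17.1% higher of the 87062 pairs of all genes. The heat shock median was below 0 in 6 of 12, with 10 of 83 pairs lower and 17 higher, shares close to those of all genes. In these sums fewer expressing cells and less RNA per cell cannot be told apart.

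Some genes moved the same way in nearly every type. Ier2 was lower in Model than in Control in 10 of 12 types and below 0 in all 12, from -1.81 in interstitial macrophages to -0.08 log2 in epithelial cells. Atf3, Nfkbia and Dusp2 were each lower in 8 types (of 12, 12 and 10 measured), Gadd45b and Klf2 in 7 of 12. Hsph1 went the other way, higher in 9 of 12 types and above 0 in all 12, from 0.29 log2 in natural killer cells to 2.29 in neutrophils. The neutrophil value rested on 126 UMIs in Model and 18 in Control. Among cells that gate and cluster both named neutrophils, no measured heat shock gene was higher. The epithelial Hsph1 ratio changed sign with equal weight per cell. Nr4a3 was higher in 6 of 11 types and lower in 1, alveolar macrophages, and Klf4 was above 0 in 11 of 12 and higher in 2. Where gate and cluster agreed, Nr4a3 came within 1.5-fold in nonclassical monocytes (0.11 log2) and was higher in interstitial macrophages (1.11). Thus Hsph1 and Dnajb1, which act in the same chaperone cycle, did not move together: Dnajb1 was below 0 in 10 of 12 types, and lower in 2.

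**Figure D3:**
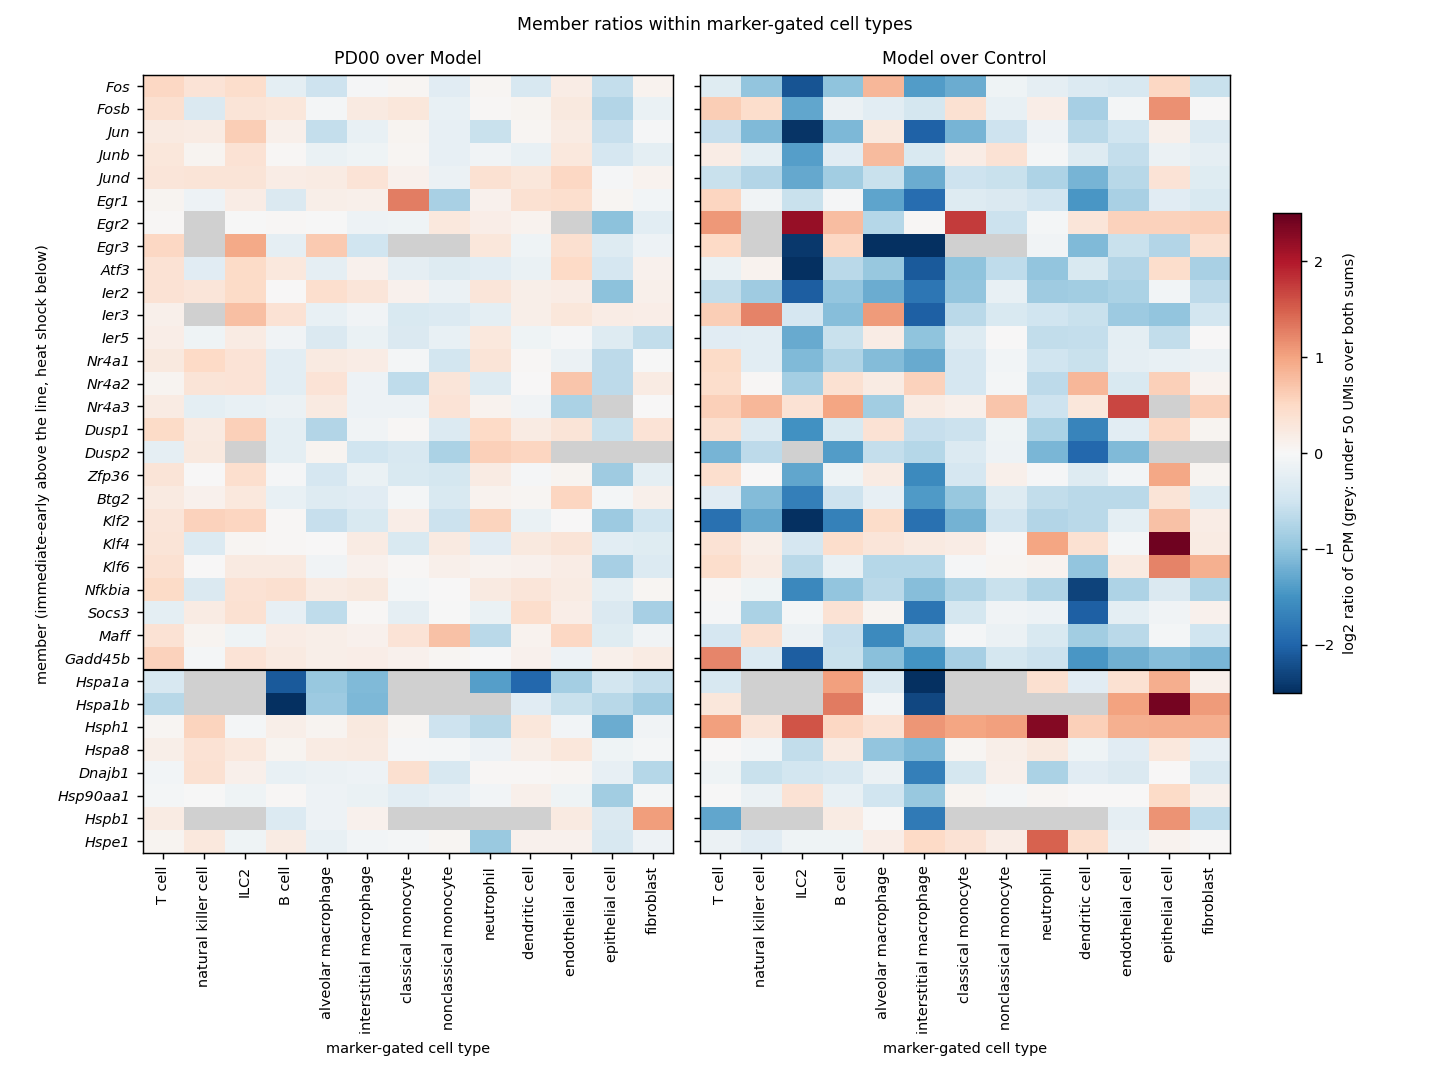
log2 ratios of CPM for each member (rows) in 13 marker-gated cell types (columns), PD00 over Model on the left and Model over Control on the right; red is higher and blue lower in the library named first, colours are capped at 2.5 either way, and grey marks fewer than 50 UMIs over both sums. The right panel is mostly blue above the line that parts immediate-early from heat shock genes, with deep blue in interstitial macrophages, and its Hsph1 row is red throughout; the left panel is paler, with blue in the Hspa1a and Hspa1b rows and the epithelial column. The ILC2 column comes from the mixed gate.

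Interstitial macrophages had the lowest Model against Control medians of the 12 types for both gene groups. There, 19 of 26 immediate-early genes were lower and 0 higher, beside 19.5% lower and 22.1% higher of 9828 genes, with a median of -1.25 log2 against 0.01 for all genes. Of the heat shock genes, 6 of 8 were lower and 1 higher, with a median of -1.41 log2 (-1.455 to -0.97 under the alternative settings). The immediate-early sum was 8944 CPM in PD00, 8574 in Model and 17351 in Control, and the heat shock sum was 2592 CPM in PD00, 2479 CPM in Model and 5066 CPM in Control. PD00 and Model differed little in either sum, and Control stood about as far above them in both.

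Single genes show the size of it. Jun, the AP-1 partner of Fos, was at 205 CPM in PD00, 232 in Model and 940.0 in Control, 4.05-fold lower (95% interval 3.79 to 4.33) in Model than in Control. Egr3 was at 8.06 CPM in PD00, 11.4 in Model and 106 in Control, 9.32-fold lower (95% interval 7.35 to 11.8) in Model. Atf3 was at 342 CPM in PD00, 315 in Model and 1353 in Control, and Ier3, which shields cells from death signals, at 232 CPM in PD00, 245 in Model and 1015 in Control, each more than 4-fold lower in Model. These 4 genes rank first by the rule for named genes, and in each PD00 lay with Model. Klf4 (688 CPM in PD00, 597 in Model and 508 in Control), Egr2 (96.9 CPM in PD00, 105 in Model and 104 in Control), Nr4a2 (105 CPM in PD00, 114 in Model and 76.5 in Control) and Nr4a3 (90.5 CPM in PD00, 98.6 in Model and 85.3 in Control) were the members not below 0, so the fall was not shared by every immediate-early gene.

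The chaperones of these macrophages showed a wide spread. Hspa1a was at 27.9 CPM in PD00, 60.00 in Model and 440.1 in Control, 7.33-fold lower (95% interval 6.58 to 8.17) in Model than in Control, and Hspa1b at 15.3 CPM in PD00, 33.5 in Model and 162 in Control. Dnajb1 was at 52.97 CPM in PD00, 58.1 in Model and 191 in Control, and Hspb1, with few UMIs, at 6.84 CPM in PD00, 6.33 in Model and 21.5 in Control. Hsph1 rose instead, with 177 CPM in PD00, 149 in Model and 69.4 in Control, 2.15-fold higher (95% interval 1.74 to 2.70) in Model. Hspa8 (-1.12 log2) and Hsp90aa1 (-0.95) were lower too. PD00 had less Hspa1a and Hspa1b than Model here (-1.11 and -1.13 log2), while 0 of 26 immediate-early genes differed, beside 1.69% higher and 5.21% lower of 10541 genes.

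The macrophages themselves differed between libraries. Their summed interstitial macrophage markers were at 4802 CPM in PD00, 5216 CPM in Model and 11703 CPM in Control. Cx3cr1 and Folr2, which mark resident cells, were at 39.5 and 32.0 CPM in PD00, 41.2 and 54.6 CPM in Model, and 245 and 221 CPM in Control. Arg1 was at 506 CPM in PD00, 589 in Model and 1.59 in Control, and Gpnmb at 422 CPM in PD00, 324 CPM in Model and 11.96 CPM in Control. The cells in Control also had lower median UMIs (10459 in PD00, 9796 in Model and 5458 in Control) and mitochondrial shares (6.03%, 6.48% and 5.22%). Within cluster 11, which held 484 of these cells in PD00, 614 in Model and 194 in Control, 19 of 26 immediate-early genes were again lower and 2 higher in Model than in Control (median -1.17 log2, beside 15.8% lower and 19.1% higher of genes), and 6 of 8 heat shock genes were lower (median -1.30). The part of the markers and depth in the result was not tested further.

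In dendritic cells the fall lay in the immediate-early genes. Model against Control, 16 of 26 were lower and 1 higher, beside 9.73% and 20.5% of 4956 genes, with a median of -0.67 log2 against 0.13. Nfkbia was at 830.4 CPM in PD00, 674 in Model and 3369 in Control, 4.998-fold lower (95% interval 4.68 to 5.34) in Model than in Control. Dusp1 was at 183 CPM in PD00, 159 in Model and 497 in Control, Socs3 at 47.7 CPM in PD00, 35.4 in Model and 146 in Control and Dusp2 at 33.2 CPM in PD00, 23.04 in Model and 90.04 in Control. In each of these 4 genes PD00 stood above Model but far below Control. Nr4a2 was the gene that was higher in Model, with 602 CPM in PD00, 595 in Model and 333 in Control. Of the heat shock genes, 0 of 6 measured were lower and 1, Hsph1, was higher (131 CPM in PD00, 108 in Model and 71.4 in Control). The dendritic cells numbered 152 in PD00, 162 in Model and 89 in Control, and Ccl22 and Ccr7, which mark mature cells, were at 648 and 444 CPM in PD00, 696 and 497 CPM in Model, and 450 and 315 CPM in Control.

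Alveolar macrophages split by gene. Model against Control, 12 of 26 immediate-early genes were lower and 3 higher, beside 26.1% and 14.2% of 11493 genes, with a median of -0.41 log2 against -0.21. Maff was at 116 CPM in PD00, 104 in Model and 314 in Control, Egr1 at 66.7 CPM in PD00, 60.7 in Model and 151 in Control and Ier2 at 122 CPM in PD00, 91.7 in Model and 217 in Control, all lower in Model. Egr3 was also lower, at 4.67 CPM in PD00, 2.99 in Model and 20.3 in Control. Ier3 (134 CPM in PD00, 154 in Model and 73.9 in Control), Fos (364 CPM in PD00, 518 in Model and 290.4 in Control) and Junb (2071 CPM in PD00, 2327 in Model and 1341 in Control) were the 3 that were higher. So Fos and Junb rose in Model alveolar macrophages while Jun, their partner, was at 113 CPM in PD00, 172 in Model and 145 in Control and within 1.5-fold.

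Of the heat shock genes in alveolar macrophages, Hspa8 was lower in Model, with 1263 CPM in PD00, 1089 in Model and 2153 in Control, and 7 of 8 stayed within 1.5-fold. PD00 differed from Model in 4 immediate-early genes, beside 3.07% higher and 5.5% lower of 10793 genes: Dusp1 (-0.72 log2), Jun (-0.60) and Socs3 (-0.63) were lower and Egr3 (0.65) was higher. Where gate and cluster agreed, Jun came within 1.5-fold (-0.48), while Dusp1 (-0.74), Socs3 (-0.75) and Egr3 (0.66) did not. With cluster names the Egr3 ratio changed sign. Hspa1a (7.30 CPM in PD00, 14.02 in Model and 17.9 in Control) and Hspa1b (9.57 CPM in PD00, 17.9 in Model and 18.7 in Control) were lower in PD00. Where gate and cluster agreed, Hspa1a was just inside the threshold (-0.58 log2) and Hspa1b past it (-0.73). Most alveolar macrophages of Control lay in cluster 23, which held 4 kept cells of PD00, 0 of Model and 2887 of Control, and most of PD00 and Model in cluster 8, which held 1335, 812 and 1. No cluster held 50 gated alveolar macrophages of both Model and Control. The type's marker Plet1 was at 923 CPM in PD00, 774 CPM in Model and 2144 CPM in Control. Arg1 was at 230 CPM in PD00, 410.0 CPM in Model and 0.36 CPM in Control. Their part in the differences was not tested.

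B cells had 10 of 26 immediate-early genes lower and 2 higher in Model than in Control, beside 8.86% and 14.3% of 8476 genes, with a median of -0.54 log2 against 0.03. Klf2 was at 434 CPM in PD00, 426 in Model and 1375 in Control, 3.22-fold lower (95% interval 3.06 to 3.39) in Model, and Dusp2 was at 107 CPM in PD00, 127 in Model and 334 in Control. Jun (191 CPM in PD00, 175 in Model and 379 in Control) and Fos (119.6 CPM in PD00, 142 in Model and 286 in Control) were lower too. Nr4a3 (128 CPM in PD00, 142 in Model and 71.7 in Control) and Egr2 (30.6 CPM in PD00, 30.05 in Model and 17.6 in Control) were higher, while Nr4a1, a relative of Nr4a3 that the antigen receptor also induces, was at 240.4 CPM in PD00, 289 in Model and 484 in Control. With doublets kept, the Egr2 ratio turned to -0.09 log2. In natural killer cells 8 of 24 were lower and 2 higher, beside 11.9% and 9.98% of 5089 genes, and Klf2 was again first among them, with 811 CPM in PD00, 543 in Model and 1316 in Control. Only 69 natural killer cells were gated in PD00, against 219 in Model and 466 in Control.

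T cells did not follow the other lymphocytes. Model against Control, 5 of 26 immediate-early genes were higher and 3 lower, beside 23.3% and 8.35% of 10681 genes, with a median of 0.27 log2 against 0.19. Klf2 fell as in B cells, with 354 CPM in PD00, 288 in Model and 1052 in Control, 3.66-fold lower (95% interval 3.53 to 3.79) in Model. Gadd45b rose, with 642 CPM in PD00, 429.9 in Model and 185 in Control, 2.32-fold higher (95% interval 2.19 to 2.45) in Model. PD00 against Control, 12 of 26 were higher and 2 lower, beside 27.6% and 7.88% of 10386 genes, with a median of 0.51 log2 against 0.25, among them Fosb (517 CPM in PD00, 391 in Model and 255 in Control), Dusp1 (450.5 CPM in PD00, 324 in Model and 244 in Control) and Klf6 (829.9 CPM in PD00, 635 in Model and 466 in Control). PD00 against Model, none passed 1.5-fold in either direction (3.54% and 3.58% of 10985 genes did), yet 24 of 26 ratios were above 0 and the median was 0.30 log2 against 0.07.

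The T cells of the libraries were not the same subsets. Cluster 1, whose cells were T cells of PD00 and Model (963 and 816 gated cells, against 1 in Control), had immediate-early sums of 15325 CPM in PD00 and 13211 CPM in Model, while cluster 3 had 8452, 7714 and 8830 CPM in PD00, Model and Control. Il1rl1, the receptor for interleukin 33, was at 305 CPM in PD00, 190 CPM in Model and 27.2 CPM in Control T cells. Within the clusters that held T cells of both libraries, the Model against Control median was -0.12 log2 in cluster 3 (172 cells in Control), -0.75 in cluster 5 and -0.60 in cluster 7, below the medians of all genes there (0.04, -0.03 and 0.01). The positive median over all T cells therefore did not hold within any of these 3 clusters. PD00 against Control, where the median over all T cells was 0.51 log2, the medians were likewise below 0, at -0.19 in cluster 3, -0.12 in cluster 5 and -0.18 in cluster 7. The PD00 against Model median was above 0 in all 6 clusters with at least 50 cells in both, from 0.11 in cluster 15 to 0.31 in clusters 7 and 20.

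Neutrophils had 10 of 26 immediate-early genes lower and 1 higher in Model than in Control, beside 7.86% and 30.4% of 5761 genes, with a median of -0.50 log2 against 0.26. Dusp1 was at 1286 CPM in PD00, 907 in Model and 1575 in Control and Dusp2 at 118 CPM in PD00, 78.7 in Model and 174 in Control. Atf3 was at 139.8 CPM in PD00, 168 in Model and 332 in Control and Ier2 at 261 CPM in PD00, 212 in Model and 391 in Control. For Dusp1, Dusp2 and Ier2, PD00 lay between Model and Control. Klf4 was the gene that was higher, with 106 CPM in PD00, 129 in Model and 65.6 in Control. Hsph1 (27.4 CPM in PD00, 44.5 in Model and 9.09 in Control) and Hspe1 (44.3 CPM in PD00, 83.98 in Model and 30.3 in Control) were higher in Model, but among the cells that gate and cluster both named neutrophils 0 of 4 measured heat shock genes were higher, and the count of lower immediate-early genes was 6 of 26.

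Endothelial cells had 11 of 26 immediate-early genes lower and 1 higher in Model than in Control, beside 11.1% and 5.85% of 8757 genes, with a median of -0.45 log2 against -0.10. Gadd45b was at 138 CPM in PD00, 151 in Model and 345 in Control, Ier3 at 1037 CPM in PD00, 849 in Model and 1586 in Control and Egr1 at 1150.5 CPM in PD00, 863 in Model and 1518 in Control. PD00 endothelial cells lay above Model in Egr1 and Ier3 and not in Gadd45b. Endothelial Hspa1b was 2.02-fold higher (95% interval 1.88 to 2.17) in Model than in Control, and Hspa1a was 1.80-fold lower (95% interval 1.67 to 1.94) in PD00 than in Model, with a PD00 against Model background of 4.95% higher and 5.22% lower of 7800 genes. Hsph1 had 136 CPM in PD00, 142 in Model and 76.5 in Control.

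Fibroblasts had 4 of 25 measured genes lower and 3 higher in Model than in Control, beside 17.2% and 8.91% of 8231 genes, with a median of -0.14 log2 against -0.13, so that the list did not stand apart from all genes. Gadd45b (441 CPM in PD00, 380.5 in Model and 837 in Control), Atf3 (848 CPM in PD00, 789 in Model and 1376 in Control), Nfkbia (721 CPM in PD00, 692 in Model and 1173 in Control) and Ier2 (582 CPM in PD00, 536 in Model and 839 in Control) were the 4 lower ones. Klf6 was higher in Model, with 768 CPM in PD00, 979 in Model and 532 in Control. PD00 against Model, Socs3 (-0.83 log2) and Ier5 (-0.62) were lower, beside 7.28% of 7323 genes. Hspb1 was at 612 CPM in PD00, 298 in Model and 460.4 in Control and was the only heat shock gene higher in PD00 than in Model in any of the 12 types, while Dnajb1 (-0.72 log2), Hspa1b (-0.89) and Hspa1a (-0.60) were lower. Without the 1% of cells with the highest member share, the Hspa1b ratio turned to 0.30 log2.

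Monocytes and epithelial cells gave less certain values. Classical monocytes had 9 of 25 immediate-early genes lower and 1, Egr2 (57.5 CPM in PD00, 62.00 in Model and 18.4 in Control), higher in Model than in Control, beside 8.88% and 18.9% of 5337 genes. Fos was at 284 CPM in PD00, 272 in Model and 643 in Control in these cells. Nonclassical monocytes had 1 of 25 lower, Atf3 (242 CPM in PD00, 302 in Model and 469 in Control), and 1 higher, Nr4a3 (221 CPM in PD00, 175 in Model and 108 in Control), beside 8.16% and 9.57% of 3897 genes. Among cells that gate and cluster both named nonclassical monocytes, Nr4a3 came within 1.5-fold (0.11 log2) and Atf3 stayed lower (-0.63). Ier3 (-0.69), Nfkbia (-0.65), Jund (-0.64) and Gadd45b (-0.60) were lower there too. Epithelial cells had 4 of 24 lower and 6 higher, beside 7.59% and 32.2% of 4556 genes. Klf4 led the higher ones with 385 CPM in PD00, 462 in Model and 85.6 in Control. PD00 against Model, 9 of 24 were lower and 0 higher in epithelial cells, beside 25.3% and 5.49% of 4681 genes, with a median of -0.43 log2 against -0.28. The sign of the epithelial Model against Control median, 0.23 log2, depended on the setting (-0.50 to 0.41). Summed epithelial markers were at 314129 CPM in PD00, 151762 CPM in Model and 408623 CPM in Control. Median UMIs of the epithelial cells were 5387 in PD00, 2112 in Model and 10108 in Control. The median of all genes in them was 0.31 log2, Model against Control. The part of markers and depth in the epithelial ratios was not tested.

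ILC2, in the cells on which gate and cluster agreed, had more Junb than any other type in every library. Junb was at 6528 CPM in PD00, 5408 in Model and 7723 in Control, and Fos at 2768 CPM in PD00, 2425 in Model and 4120.1 in Control. Atf3 was at 877 CPM in PD00, 589 in Model and 1974 in Control, Jun at 2118 CPM in PD00, 1380.1 in Model and 2905 in Control, and Gadd45b at 2251 CPM in PD00, 1677 in Model and 3031 in Control. Each of these was lowest in Model and highest in Control. Model against Control, 12 of 24 measured immediate-early genes were lower and 1 higher, beside 17.5% and 14.2% of 2549 genes, with a median of -0.59 log2. PD00 against Model, 5 of 23 were higher and 0 lower, beside 12.1% and 3.34% of 2003 genes. In the whole gate, with its mixed cells, 18 of 25 were lower and 1 higher in Model than in Control, beside 22.7% and 27.8% of 4500 genes, and 4 of 25 were higher and 0 lower in PD00 than in Model, beside 8.22% and 4.97% of 5599 genes.

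PD00 against Model within cell types, 5 of 302 immediate-early pairs were higher and 19 lower over the 12 types, and 1 of 84 heat shock pairs higher and 18 lower, beside 5.06% higher and 6.63% lower of the 85368 pairs of all genes. The heat shock count changed in cells thinned to 1000 UMIs, where 4 of the 55 pairs still measured were lower and 2 higher. Thinning also drops shallower cells and gives each cell equal weight, so the part of depth cannot be told apart. The counts of immediate-early genes were 0 higher and 0 lower of 26 in B cells (beside 3.93% and 2.77% of 8884 genes), 0 and 0 of 26 in dendritic cells (beside 4.94% and 3.42% of 5734 genes), 0 and 0 of 23 in natural killer cells (beside 12.1% and 7.17% of 3276 genes) and 1 and 1 of 25 in classical monocytes (beside 5.59% and 6.98% of 5585 genes). Of the 18 lower heat shock pairs, Hspa1a made 7 and Hspa1b 6, and their ratios were below 0 in all 9 and all 8 types that could be measured. In B cells they rested on few UMIs, at 3.06 CPM in PD00, 13.1 in Model and 6.49 in Control for Hspa1a and 0.873 CPM in PD00, 10.7 in Model and 4.33 in Control for Hspa1b, and among cells that gate and cluster both named B cells no heat shock gene passed. In dendritic cells Hspa1a was at 12.7 CPM in PD00, 49.3 in Model and 60.4 in Control, 21 UMIs in PD00. Hspa1a was lower in PD00 in interstitial and alveolar macrophages, endothelial cells and fibroblasts, and Hspa1b in the same types other than endothelial cells. In these types the background share of lower genes was at most 7.28%. Some of these calls were near the threshold. Where gate and cluster agreed, Hspa1a in alveolar macrophages was just inside it (-0.58 log2) and Hspa1b in endothelial cells just past it (-0.61). Fibroblast Hspa1a, at 313 CPM in PD00 and 473 in Model, was just past it, and its highest count in 1 cell was larger in Model. The fibroblast Hspa1b ratio changed sign without the 1% of cells with the highest member share. In plasma cells and eosinophils, which had too few cells in Control, the PD00 against Model counts were 2 higher and 2 lower of 25 immediate-early genes in plasma cells (beside 6.94% and 2.92% of 8669 genes) and 2 higher and 0 lower of 24 in eosinophils (beside 5.49% and 4.33% of 3350 genes). The eosinophil genes were Jun (190.3 CPM in PD00 and 94.9 CPM in Model) and Egr1 (283 CPM in PD00 and 176 CPM in Model). Among cells that gate and cluster both named eosinophils, Jun (0.30 log2) and Egr1 (0.48) came within 1.5-fold.

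PD00 against Control within the 12 types, 109 of 300 immediate-early pairs were lower and 27 higher, and 15 of 79 heat shock pairs lower and 11 higher, beside 13% lower (10709) and 17.2% higher of the 82116 pairs of all genes. Interstitial macrophages again had the most lower genes, 20 of 26, and 0 higher, beside 18.1% and 22.4% of 9054 genes. Classical monocytes had 14 of 25 lower and 3 higher (beside 14.0% and 19.3% of 4507 genes), and B cells 12 of 26 lower and 2 higher (beside 8.73% and 18.2% of 8289 genes). In interstitial macrophages Hspa1a was 15.8-fold lower (95% interval 13.6 to 18.3) in PD00 than in Control.

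Per cell, the values shifted as a whole in some types. Cells were thinned to 1000 UMIs each, which left out 1101 shallower cells in PD00, 1355 in Model and 307 in Control. The median immediate-early count per thinned cell was 9 in PD00, 8 in Model and 10 in Control. In interstitial macrophages it was 9 in PD00, 8 in Model and 16 in Control, and the lower quartile in Control, 12, lay near the upper quartile in PD00 and Model, 13 in both. In dendritic cells the medians were 8 in PD00, 7 in Model and 14 in Control, and in B cells 6 in PD00, 6 in Model and 10 in Control. So the middle of the distribution differed there, not only a tail of cells with high counts. In T cells the medians were 9, 8 and 8 in PD00, Model and Control, and the difference lay in the tail: 13.9% of cells in PD00, 8.34% in Model and 4.84% in Control had at least 20 immediate-early UMIs per 1000.

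**Figure D4:**
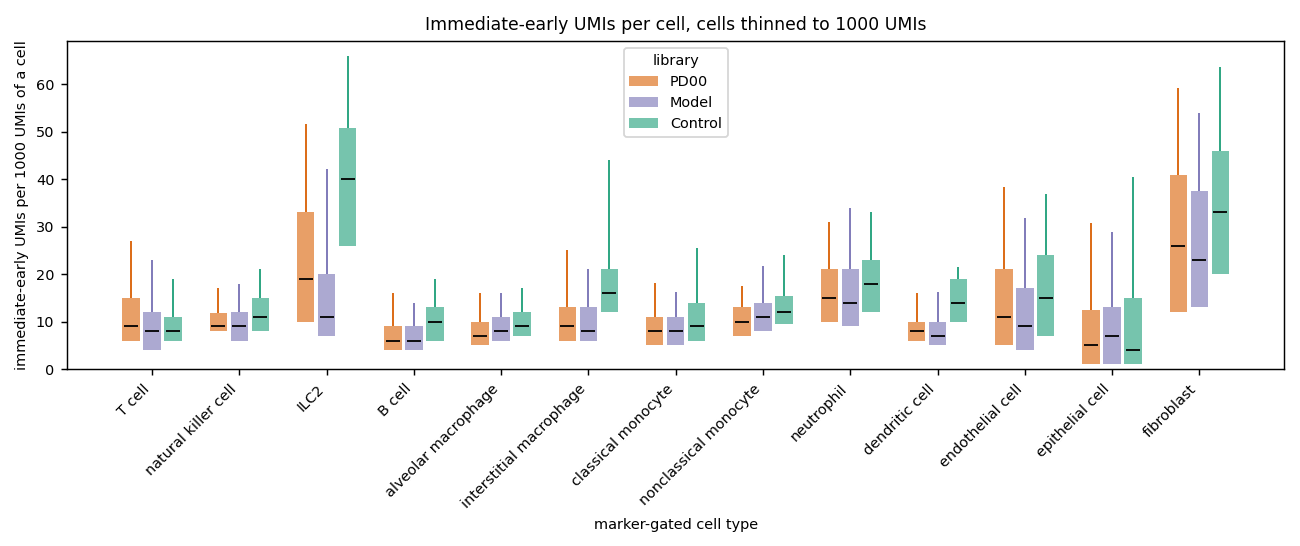
Immediate-early UMIs per 1000 UMIs of a cell in 13 marker-gated types, after thinning each cell to 1000 UMIs; boxes span the quartiles, black lines mark the median and the thin line reaches the 95th percentile, for PD00, Model and Control. In interstitial macrophages the Control median of 16 lies above the PD00 and Model upper quartiles of 13, and in T cells the PD00 box reaches higher than the others at equal or near equal medians. The ILC2 gate holds mixed cells in PD00 and Model.

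The inducible chaperones were detected in few immune cells. A UMI of Hspa1a or Hspa1b was found in 50% of thinned endothelial cells in PD00, 41.6% in Model and 38.3% in Control, and in 36.2% of fibroblasts in PD00, 28.9% in Model and 29.6% in Control. In T cells, as a low type, the shares were 0.83% in PD00, 1.65% in Model and 0.65% in Control at the same depth. In interstitial macrophages they were 5.88% in PD00, 7.96% in Model and 19.4% in Control, above the T cell shares in every library. In endothelial cells and fibroblasts the share was highest in PD00 while the Hspa1a level was lower in PD00 than in Model, so no order was read from these shares.

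Within cells, immediate-early and heat shock counts varied together in the stroma and not in T cells. The Pearson correlation of immediate-early with heat shock UMIs across thinned cells was 0.32 in PD00, 0.47 in Model and 0.50 in Control for endothelial cells, and 0.29, 0.34 and 0.39 for fibroblasts in the same order. In epithelial cells it was 0.42 in PD00, 0.35 in Model and 0.58 in Control, and in interstitial macrophages 0.29 in PD00, 0.18 in Model and 0.34 in Control. In T cells it was -0.01 in PD00, 0.01 in Model and 0.09 in Control. These are descriptions over cells of 1 library each, which share that library, and in such sparse counts values near 0 say little.

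**Figure D5:**
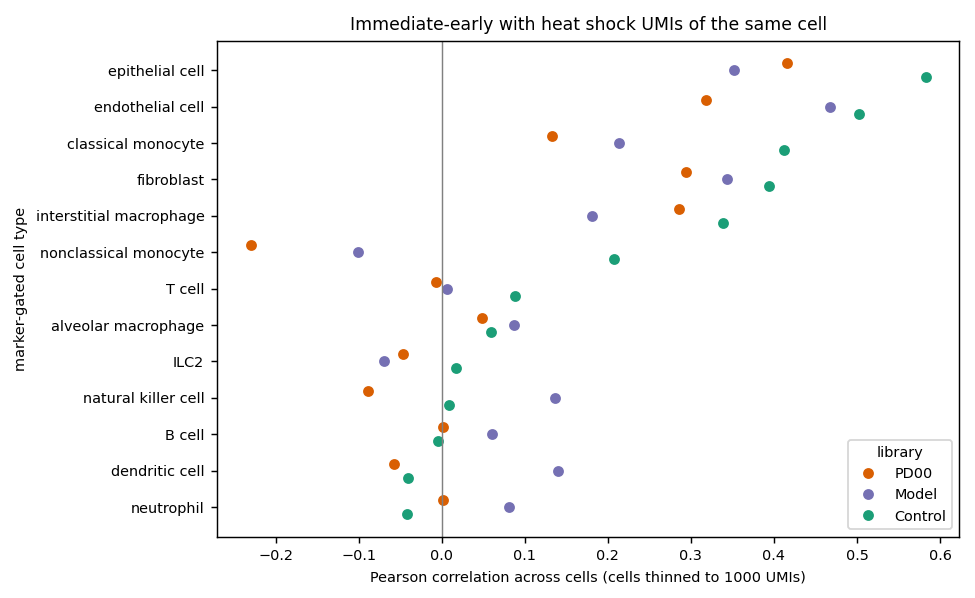
Pearson correlation between the immediate-early and the heat shock UMIs of the same cell (x axis), across cells thinned to 1000 UMIs, for 13 marker-gated cell types (y axis) and the PD00, Model and Control library. Endothelial cells (0.32, 0.47 and 0.50 in PD00, Model and Control) lie right of 0 in all 3 libraries and T cells (-0.01, 0.01 and 0.09) near it.

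Wider lists place the 34 genes among their pathways, over all kept cells. Of 39 further immediate-early genes, 11 were lower and 4 higher in Model than in Control, beside 18.1% and 12.3% of all genes, and 0 were higher and 3 lower in PD00 than in Model, beside 3.5% and 7.29%. Plk3, a stress-activated kinase, had 59.8 CPM in PD00, 56.1 in Model and 164 in Control, Sgk1, a glucocorticoid-induced kinase, 428 CPM in PD00, 304 in Model and 777 in Control, and Gadd45g, a relative of Gadd45b, 39.1 CPM in PD00, 40.3 in Model and 87.6 in Control. Dusp4, a phosphatase related to Dusp2, went the other way with 43.4 CPM in PD00, 48.2 in Model and 6.50 in Control. Rgs2, a regulator of G protein signalling, was also higher in Model, with 410.4 CPM in PD00, 394 in Model and 226 in Control. The list median was -0.17 log2, against -0.13 for all genes. Of 16 upstream regulators, Mapk3, which encodes an ERK kinase, was lower (158 CPM in PD00, 128 in Model and 193 in Control) and Srf, the CArG box factor, higher (11.5 CPM in PD00, 12.3 in Model and 7.74 in Control), and the other 14 were within 1.5-fold. Both shares were below the 18.1% lower and 12.3% higher of all genes, so these regulators did not stand out as a list.

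Of 35 further heat shock and proteotoxic stress genes, 7 were lower and 0 higher in Model than in Control, a share of lower genes near the 18.1% of all genes (12.3% were higher). In PD00 against Model 1 was higher and 0 lower, shares below those of all genes given above for that comparison. Hmox1, heme oxygenase, had 192 CPM in PD00, 157 in Model and 409 in Control, Hspa4l 74.4 CPM in PD00, 61.95 in Model and 109.6 in Control and Cryab, a lens-type small heat shock protein, 9.22 CPM in PD00, 11.4 in Model and 20.4 in Control. Of 10 chaperones of the endoplasmic reticulum, 4 were higher and 0 lower in Model than in Control, beside 12.3% and 18.1% of all genes: Sdf2l1 had 104 CPM in PD00, 113 in Model and 40.2 in Control, Pdia4 178 CPM in PD00, 171 in Model and 69.7 in Control and Hsp90b1 1403 CPM in PD00, 1352 in Model and 651 in Control. Plasma cells, which secrete antibody and carry much of this machinery, numbered 375 in PD00, 372 in Model and 29 in Control, and their part in these values was not tested. PD00 and Model differed in 0 of the 10, and the shares of all genes given above for that comparison were also small.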

How the data were processed

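RNA of lung cells was measured in 3 droplet libraries (3′ v3 chemistry, per the labels), PD00, Model and Control. The authors deposited UMI counts per gene and cell. The file headers name cellranger 5.0.0, and the submitters' processing notes list Cell Ranger 3.1.0, STAR and the mm10 build. The counts are whole numbers and not normalized.

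Barcodes under 500 UMIs or 200 genes, or above 20% mitochondrial UMIs, were left out, and so were those with a Scrublet doublet score above 0.2 (274 in PD00, 252 in Model and 421 in Control). Per cell, the type with the highest share of its markers detected was taken when at least 2 were detected and no other type tied; the scoring rule of this gate was set with the data in view. Leiden clusters, made without the 34 genes, gave the cluster numbers and the alternative cell names. UMIs were summed per library and type and scaled to CPM. CPM values carry exact Poisson intervals and ratios exact conditional binomial intervals, at 95%; PCR copies without a distinct identifier are not independent molecules, so these cover counting error only. Called means at least 1.5-fold and at least 50 UMIs over both sums. The members, the wider lists and this rule were chosen with earlier results of these data known. Named within a type are up to 4 higher and 4 lower members per list, ranked by the interval bound nearest to 1; other members are given to show a family or a partner and were chosen after their values were seen.

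On simulated counts with 200 genes changed 2-fold, 99.5% of those measured over all cells in Model against Control were called the right way (15451 genes) and 90.5% in interstitial macrophages (9815 genes), where 11.3% of unchanged genes were called as well. The counts were drawn as independent Poisson values, without variation between cells or libraries. These shares therefore cover counting error only and do not give the accuracy of calls in the data. Promoter windows came from RefSeq (GRCm38.p6). Alternatives were 13 planned and 3 added after the data were seen. Python 3.11.15, numpy 2.4.6, scipy 1.17.1, pandas 2.3.3, scanpy 1.11.5 and matplotlib 3.10.9 were used.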

Additional observations from a re-analysis of the deposited data

Results flagged for a closer look

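Some genes moved in opposite directions in different cell types under the same comparison, with 1 library per group, and these differences between types were not tested. Model against Control, Ier3 was higher in alveolar macrophages (1.06 log2) and lower in interstitial macrophages (-2.05 log2). Gadd45b was higher in T cells (1.21 log2) and lower in interstitial macrophages (-1.50 log2). Hspa1b was higher in epithelial cells (2.40 log2) and lower in interstitial macrophages (-2.27 log2), and Hspb1 was higher in epithelial cells (1.12 log2) and lower in interstitial macrophages (-1.77 log2). The Hspb1 value of epithelial cells turned to -0.20 log2 when each cell had equal weight. The median of all genes in epithelial cells was itself 0.31 log2, Model against Control.

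PD00 against Model, Hsph1 was higher in eosinophils (1.17 log2) and lower in epithelial cells (-1.24 log2). Hspb1 was higher in fibroblasts (1.04 log2) and lower in plasma cells (-1.55 log2), where it rested on 29 UMIs in PD00 and 78 in Model. Among cells that gate and cluster both named plasma cells, Hspb1 had 19 UMIs in PD00 and 16 in Model. That was too few for a call, and the ratio was 0.17 log2, so the plasma cell value did not hold there.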

How the results depend on the processing

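Of 324 alternative counts of members, 300 stayed within 1.5 times the reported count. For immediate-early genes within cell types, 13 of 376 pairs were higher in PD00 than in Model (plasma cells, eosinophils and the mixed ILC2 gate included, as in the pair counts that follow); this count was 8 with median-of-ratios scaling, 7 with at least 200 UMIs, 21 in thinned cells, 29 with cluster names and 20 with a stricter gate lead of 0.7. The 28 pairs higher in PD00 than in Control became 44 with cluster names. Over all cells, 0 immediate-early genes lower in PD00 than in Model became 1 with a 10% mitochondrial limit, with doublets kept, with at least 500 genes per cell or without cluster 2. For heat shock genes, PD00 against Model, 3 pairs higher became 5 with cluster names and with the stricter lead, 21 pairs lower became 32 at 1 UMI, 13 at 200 UMIs and 4 in thinned cells, and 2 genes lower over all cells became 1 in thinned cells. Model against Control, the 1 gene higher became 0 with equal weight per cell and 2 with equal weight per type, the 2 lower became 1 with median-of-ratios scaling and 0 with equal weight per type, and 18 pairs higher became 5 in thinned cells. PD00 against Control, 12 pairs higher became 3 in thinned cells, 2 genes lower became 1 with median-of-ratios scaling, and 15 pairs lower became 29 at 1 UMI.

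Of 5975 alternative medians and ratios, 4803 stayed unmoved and 1147 moved without reversing. The other 25 reversed. PD00 against Model these were Egr1 in nonclassical monocytes (0.61), Egr3 in alveolar macrophages (-0.14), Nr4a3 in endothelial cells (0.10), Hsph1 (0.078) and Hspe1 (0.13) in neutrophils with cluster names; Hsph1 (0.12) and Hspe1 (0.32) in neutrophils where gate and cluster agreed; Ier2 in epithelial cells (0.015) and Hsph1 (0.063) and Hspe1 (0.38) in neutrophils with equal weight per cell; and Hspa1b in fibroblasts (0.30) without the 1% of cells highest in members. Model against Control they were the heat shock median (-0.24), Ier5 (0.00265), Hsph1 (-0.29) and Hspb1 (-0.20) in epithelial cells with equal weight per cell, that median in thinned cells (-0.16), Egr2 over all cells with equal weight per type (0.16), Egr2 in T cells (-0.27) and B cells (-0.086) with doublets kept, and Hspa1b in fibroblasts (-0.28) without the top 1%. PD00 against Control they were Egr2 over all cells (0.084, equal weight per type), Egr2 in T cells (-0.073, doublets kept), Nr4a3 in fibroblasts (-0.021 without the top 1% and -0.64 in thinned cells) and Hspb1 in epithelial cells (-0.41, equal weight per cell). The causes were not tested. Median-of-ratios scaling ended the all-cell calls of Fos, Jun, Nr4a1 and Hspb1, Model against Control, and that of Jun also ended with a 10% mitochondrial limit and with doublets kept. The immediate-early median of interstitial macrophages, Model against Control, ranged from -1.29 log2 with a 10% mitochondrial limit to -0.99 with equal weight per cell over the settings that gave a value.

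No paired analysis was possible because each group has 1 library, and leaving out a library would remove its group. Depth limits the genes with few UMIs, such as Hspb1 in immune cells and Hspa1b in lymphocytes.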

Other observations

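The inducible chaperone RNA sat in few cells. Of the Hspa1a UMIs over all kept cells, the 1% of cells richest in it held 61.8% in PD00, 63.4% in Model and 47.5% in Control. Any Hspa1a UMI was found in 8.26% of cells in PD00, 10.8% in Model and 13.7% in Control, at unequal depths. In fibroblasts the highest Hspa1a count of 1 cell was 39 UMIs in PD00, 162 in Model and 56 in Control, and the highest Hspa1b count was 33 in PD00, 190 in Model and 25 in Control.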
